A study of Mus musculus with 14 samples.

Results

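The genes described here are 10 secreted cytokine genes of the inflammatory response, chosen by name from the 41739 genes of a deposited expression table: Il6, Tnf, Il1a, Il1b, Il1rn, Il18, Il10, Il12b, Lif and Osm. All 10 were found in the table, and 9 passed the filter on low values, a TPM (a level per transcript length that sums to the same total in each library) of at least 1 in at least 3 libraries. Lif did not pass and was not tested. The table holds RNA sequencing of microglia, macrophages that live in the brain, which were isolated by magnetic sorting from mice of 8 weeks. KO mice carried floxed Rheb alleles (Rheb F/F) and Tmem119-cre ER, a tamoxifen-inducible Cre recombinase tied to the microglial gene Tmem119, while WT mice carried Rheb F/F without it. Rheb, a small GTPase, switches on the kinase complex mTORC1, which couples growth to nutrients. Per the series' design text, mice were treated with tamoxifen and then injected into the peritoneum on each of 4 days with LPS, bacterial endotoxin, at 1.0 mg/kg or with PBS, the vehicle. The groups were 4 KO LPS, 4 WT LPS, 3 KO PBS and 3 WT PBS libraries. All KO and no WT libraries carried Cre, so loss of Rheb, Cre itself and any change at the Tmem119 allele cannot be told apart.

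Cytokines are signals between cells. In macrophages and microglia, bacterial products sensed by Toll-like receptors switch on NF-kB and AP-1 transcription factors, which induce Tnf, Il1a, Il1b, Il6 and Il12b within a short time. IL-1 alpha is active as made and acts as an alarm signal. IL-1 beta and IL-18 are made as precursors, cut by caspase-1 in inflammasomes. Il1rn encodes the IL-1 receptor antagonist, which blocks the receptor that IL-1 alpha and IL-1 beta share. IL-10 restrains macrophage activation, and the IL-12 p40 subunit encoded by Il12b is part of both IL-12 and IL-23. IL-6, LIF and oncostatin M signal through receptors that contain gp130. The mRNAs of several of these genes are short-lived, and repeated endotoxin is known to blunt some of the responses that a single dose gives.

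The 250 bases before the start of transcription are shown for Il6 and Il1a, the genes called between the genotypes, and for Tnf and Il1b, which were not called. They are from RefSeq on build GRCm38.p6, 5′ to 3′ on the strand of the gene. Capitals mark matches, on either strand, to GGGANTTTC and GGNNTTTCC, which are NF-kB type motifs that can overlap each other, to TGANTCA, an AP-1 motif, and to TGACGTCA, a cAMP response element. Il6 lies on the plus strand at chr5:30012864-30013113, Il1a on the minus strand at chr2:129309973-129310222, Tnf on the minus strand at chr17:35202008-35202257 and Il1b on the minus strand at chr2:129371140-129371389.
Il6: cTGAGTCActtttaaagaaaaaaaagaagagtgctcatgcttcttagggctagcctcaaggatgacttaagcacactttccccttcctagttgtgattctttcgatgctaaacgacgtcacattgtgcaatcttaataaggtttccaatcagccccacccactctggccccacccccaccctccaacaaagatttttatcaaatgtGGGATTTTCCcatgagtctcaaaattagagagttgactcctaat
Il1a: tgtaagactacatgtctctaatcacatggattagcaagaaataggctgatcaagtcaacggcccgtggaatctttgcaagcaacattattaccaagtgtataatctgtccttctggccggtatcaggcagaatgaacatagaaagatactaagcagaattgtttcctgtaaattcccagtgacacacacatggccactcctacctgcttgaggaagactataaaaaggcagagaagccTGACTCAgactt
Tnf: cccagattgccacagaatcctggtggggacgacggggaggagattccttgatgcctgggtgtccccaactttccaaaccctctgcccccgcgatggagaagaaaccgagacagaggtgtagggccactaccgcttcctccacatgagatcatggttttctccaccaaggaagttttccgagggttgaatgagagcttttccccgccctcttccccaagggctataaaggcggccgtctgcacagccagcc
Il1b: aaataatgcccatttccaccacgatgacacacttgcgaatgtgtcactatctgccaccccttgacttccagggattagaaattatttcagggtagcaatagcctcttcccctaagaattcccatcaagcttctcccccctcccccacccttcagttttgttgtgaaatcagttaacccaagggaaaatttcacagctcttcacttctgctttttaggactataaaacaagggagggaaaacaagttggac
The table of promoters matched 8 of the 10 genes, all but Il10 and Osm, with windows of 250 bases before to 50 after the start. Il6 held GGGATTTTC 44 bases before the start, overlapping GGATTTTCC at 43 bases, and TGAGTCA at 249 bases. Il1a held TGACTCA 12 bases before the start. An NF-kB type motif of either kind occurred in 6.48% of all 32851 promoters, 1.11% for GGGANTTTC and 5.82% for GGNNTTTCC. TGANTCA occurred in 7.81% and TGACGTCA in 1.79%. Among genes that were not called between genotypes, Il1rn held TGAGTCA in promoter 1 of its 3 promoters. The windows of its promoters 2 and 3 overlap and held the same GGTTTTTCC site. That site lies 30 bases after the start of promoter 2 and 50 bases before that of promoter 3. Lif, which was not tested, held TGACTCA. The windows of Tnf, Il1b, Il18 and Il12b had no match to these letters. A match is a description of the letters alone, and factor binding was not measured.

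The reads behind the TPM values, recovered from the table as estimates, came to 8.00 M (mega) reads in KO_LPS_4 and to between 15.7 and 32.3 M in the other 13 libraries. Rheb stood at 19.5 to 25.5 TPM in KO LPS against 25.1 to 33.6 in WT LPS, and at 16.6 to 19.1 in KO PBS against 29.7 to 34.5 in WT PBS. Microglial markers were abundant throughout, summing over 10 genes to 13664 TPM at the lowest in KO_LPS_1. Neutrophil markers summed over 10 genes to 5116 TPM at the lowest, and neutrophils and monocytes are known to make several of these cytokines. No marker of microglia, neutrophils or monocytes was at 0 throughout any group. Pituitary hormone genes reached sums of 32069 TPM in KO_LPS_3 and, among PBS libraries, 88720 TPM in WT_PBS_914, where other libraries had at most 180 TPM. Xist stood at 255 to 574 TPM in all LPS libraries and at most 0.147 TPM in all PBS libraries, and the Y-linked gene Ddx3y at most 0.270 TPM in LPS libraries against 111 to 146 TPM in PBS libraries, although the design text names female mice. LPS and sex therefore cannot be told apart, while KO and WT libraries expressed the same one of these genes within each treatment. In these bulk libraries, a change in the share of cells of a type and a change of RNA per cell cannot be told apart.

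**Figure D1:**
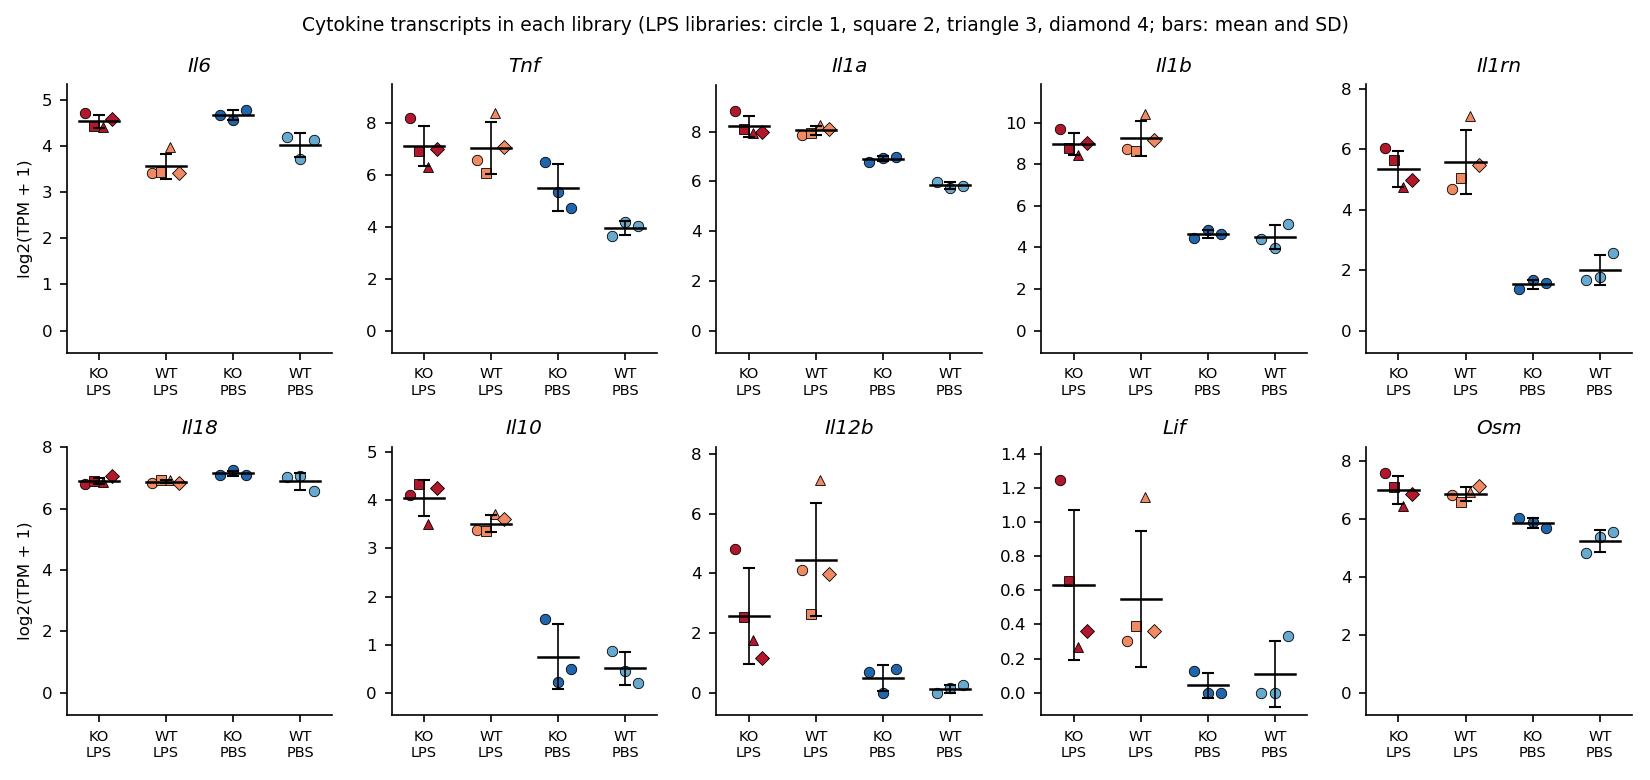
Log2(TPM + 1) of the 10 cytokine genes in each library, 1 panel per gene with its own axis, with the groups from left to right KO LPS, WT LPS, KO PBS and WT PBS, points for libraries and bars for the group mean and SD. Il6 lies at 20.1 TPM or above in all 7 KO libraries and at 17.4 TPM or below in all 7 WT libraries, while the LPS groups of Tnf, Il1b, Il1rn and Il12b are spread widely.

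Levels in TPM, which allow genes to be set side by side, followed a different order with and without LPS. In the LPS groups Il1b had the highest mean, 530 ± 206 TPM in KO LPS and 692 ± 463 TPM in WT LPS (SD, n = 4 each), followed by Il1a, Tnf, Osm and Il18. The range of Il1b lay above that of Il1a in WT LPS, with a lowest library of 389 TPM, but overlapped it in KO LPS. The ranges of Tnf and Osm overlapped each other in both LPS groups. In KO PBS and WT PBS libraries alike, Il18 and then Il1a had the highest means, 142 ± 9.11 and 119 ± 7.91 TPM in KO PBS and 120 ± 21.7 and 56.6 ± 5.61 TPM in WT PBS (SD, n = 3 each), and the ranges of these neighbours did not overlap. Lif was the lowest gene in all 4 groups, at 0.204 to 1.37 TPM in KO LPS, 0.236 to 1.21 in WT LPS, 0 to 0.0942 in KO PBS and 0 to 0.262 in WT PBS. Those Lif values rest on 3 to 40 reads in LPS libraries and 0 to 6 reads in PBS libraries. Il10 and Il12b were close to the same limit without LPS, with 1 to 12 and 0 to 8 reads, so that differences between genotypes in these genes were not resolved at this depth. Il18 and Il1a rested without LPS on 516 to 789 and 430 to 1370 reads.

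The comparison of KO with WT under PBS asks whether the genes stood higher in Rheb-deleted microglia without LPS. Il1a rose, and it was the only called gene of the 9 tested. In this comparison 1.02% of all 18724 tested genes were called, 0.796% higher and 0.224% lower. Il1a had 110, 123 and 125 TPM in KO PBS libraries, against 62.7, 51.7 and 55.4 TPM in WT PBS libraries. Every KO library was above every WT library, with little spread inside either group. The means were 119 ± 7.91 TPM in KO PBS and 56.6 ± 5.61 TPM in WT PBS (SD, n = 3 each), a difference of 1.06 ± 0.19 on the log2(TPM + 1) scale (SE, limma, 95% interval 0.65 to 1.48, adjusted p = 0.0319). The call was lost when any 1 of the 6 PBS libraries was left out, with differences of 1.00 to 1.14 and adjusted p of 0.0573 to 0.115, under no filter on low values (adjusted p = 0.0504), without both pituitary-rich libraries (0.102) and with voom on the recovered reads (0.0633). Leaving out 1 PBS library also brought the count of all called genes to between 8 and 49, against 191 with all libraries. Exons of Il1a (chr2:129299610-129309972, minus strand, GENCODE M21 on GRCm38) overlap those of Gm14023 on the opposite strand, and the labels do not state strand, so reads of the pair cannot be told apart. Gm14023 had 16.9, 13.5 and 12.5 TPM in KO PBS libraries and 2.96, 5.33 and 5.97 TPM in WT PBS libraries.

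Tnf and Il6 also stood higher in every KO PBS library than in every WT PBS library, but neither was called. Tnf had 88.0, 38.9 and 25.1 TPM in KO PBS libraries, against 11.5, 17.2 and 15.2 TPM in WT PBS libraries. The KO libraries differed among themselves by more than the WT libraries did, and KO_PBS_911 was far above the rest. The difference was 1.55 ± 0.58 on the log2(TPM + 1) scale (SE, 95% interval 0.29 to 2.80, limma adjusted p = 0.225). Il6 had 24.6, 22.6 and 26.2 TPM in KO PBS libraries, against 17.4, 12.1 and 16.4 TPM in WT PBS libraries. These groups were tight and apart, with a difference of 0.66 ± 0.17 (SE, log2 scale, 95% interval 0.29 to 1.02, limma adjusted p = 0.0818). Osm, a macrophage cytokine of the IL-6 family, had 64.8, 58.7 and 50.4 TPM in KO PBS libraries and 27.6, 40.3 and 46.5 TPM in WT PBS libraries, a difference of 0.62 ± 0.25 (SE, log2 scale, limma adjusted p = 0.264). Osm groups came close to each other but did not overlap.

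Other members gave no difference of that kind. Il1b had 21.1, 27.5 and 24.2 TPM in KO PBS libraries, inside the WT PBS values of 20.4, 14.7 and 33.9 TPM, and its difference was 0.14 with a 95% interval of -0.80 to 1.08 (log2 scale, limma adjusted p = 0.900). Exons of Il1b overlap those of Il1bos on the opposite strand, so reads of that pair cannot be told apart either. Il1bos had 1.24 to 2.20 TPM in KO PBS and 0.701 to 1.25 TPM in WT PBS. Il1a and Il1b are neighbours on the same chromosome and bind the same receptor, and the ratio of Il1b to Il1a within a library was 0.191 to 0.224 in KO PBS and 0.284 to 0.613 in WT PBS, with no overlap. The ratio uses the Il1a values given above and is not a result separate from them. Il1rn, the antagonist, was the gene that stood lower in all KO PBS libraries, at 1.59, 2.17 and 1.98 TPM against 2.19, 2.40 and 4.90 TPM in WT PBS. The highest Il1rn value was that of WT_PBS_914, the library rich in pituitary transcripts, and the difference was -0.46 with a 95% interval of -1.57 to 0.65 (limma adjusted p = 0.697). Il18 had 135, 152 and 137 TPM in KO PBS libraries and 131, 134 and 95 TPM in WT PBS libraries, groups that lay apart by little, with a difference of 0.25 and a 95% interval of 0.00 to 0.50 (limma adjusted p = 0.317). The lowest Il18 value was again that of WT_PBS_914. With 1 library left out the Il18 difference ran from 0.09 to 0.34. In all, 8 of the 9 tested genes had a positive difference, where 49.1% of all genes did. Their median was 0.36 on the log2(TPM + 1) scale, beside -0.00 over all genes. That median is the value of Il12b, with a 95% interval of -1.79 to 2.51 on 0 to 8 reads. Il10, on 1 to 12 reads, and Il1b are also among the positive differences. Il10 turned to -0.14 without KO_PBS_911 and Il1b to -0.12 without WT_PBS_913, so the count and the median rest partly on unresolved genes. Groups lay apart for 5 genes in the higher direction (Il6, Tnf, Il1a, Il18 and Osm) and for 1 in the lower, beside 14.9% and 10.9% of all genes. With 3 libraries against 3 an exact two-sided permutation test cannot give a p below 0.1, and it gave 0.1 for each of these 6 genes.

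Other readings of the same PBS libraries moved with some of these values. Summed TPM of the immediate early genes, which are induced within minutes of handling or stimulation, was 12051, 9479 and 7163 in KO_PBS_911, KO_PBS_912 and KO_PBS_915, and 5787, 9279 and 6967 in WT_PBS_904, WT_PBS_913 and WT_PBS_914. Within each genotype this is the same order of libraries as that of Tnf. Neutrophil markers summed to 5116, 7682 and 8090 TPM in KO PBS and 5676, 7774 and 23480 TPM in WT PBS, and monocyte markers to 460 to 589 TPM in KO PBS and 468 to 1146 TPM in WT PBS. The KO PBS sums of both lists overlapped the WT PBS sums or lay below them. The part of immediate early genes, neutrophils and monocytes in the values of Il1a, Tnf, Il6 and Osm was not tested.

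**Figure D2:**
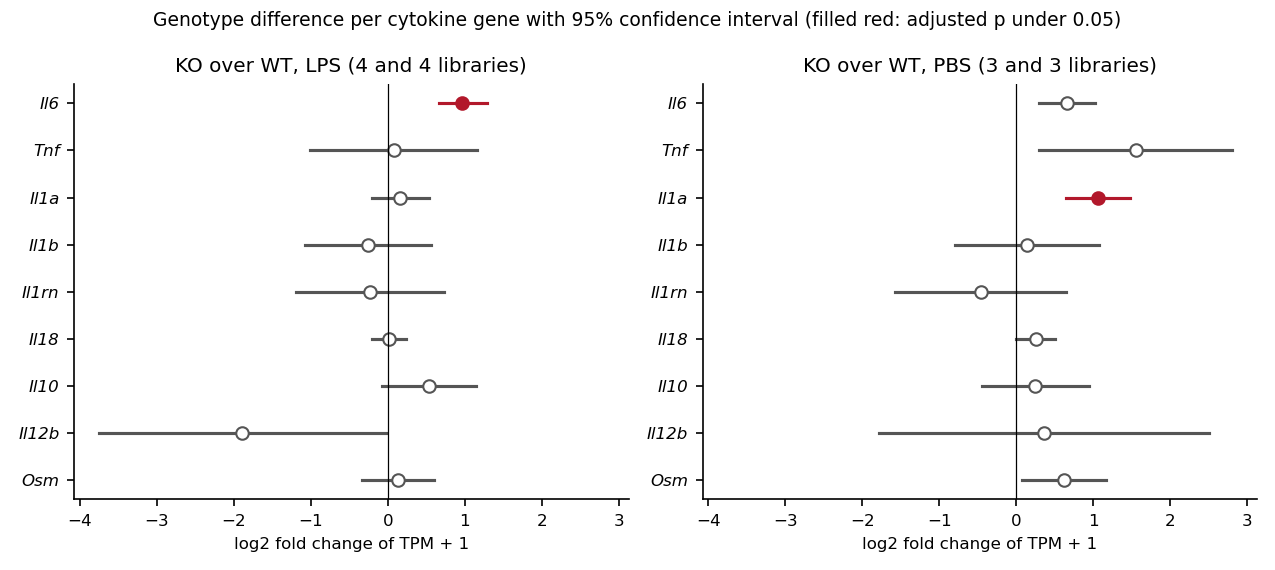
Difference between KO and WT in log2(TPM + 1) for the 9 tested cytokine genes, under LPS in the left panel and under PBS in the right panel, with 95% intervals from limma and filled red points for called genes. Il6 under LPS, at 0.97, and Il1a under PBS, at 1.06, are the called points, and the intervals of Tnf, Il1rn and Il12b are wider than those of Il6 and Il18.

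Under LPS the called gene was Il6 in place of Il1a. Il6 rose in KO LPS, with 25.3, 20.6, 20.1 and 22.8 TPM in KO LPS libraries, against 9.72, 9.75, 14.6 and 9.69 TPM in WT LPS libraries. The groups did not overlap, and 3 of the 4 WT LPS libraries were almost equal, with WT_LPS_3 above them. The means were 22.2 ± 2.38 TPM in KO LPS and 10.9 ± 2.45 TPM in WT LPS (SD, n = 4 each), a difference of 0.97 ± 0.15 on the log2(TPM + 1) scale (SE, limma, 95% interval 0.66 to 1.29, adjusted p = 0.0175). The p of an exact two-sided permutation test was 0.0286, which is the lowest possible with 4 against 4 libraries. Of all tested genes 0.497% were called in this comparison, 0.256% higher and 0.240% lower. The call held when any 1 LPS library was left out, at adjusted p of 0.0114 to 0.0497. It was lost when the LPS groups were fitted alone (adjusted p = 0.101) and when both pituitary-rich libraries were left out (adjusted p = 0.0561), at differences of 0.97 and 1.01. The values rest on 133 to 330 reads in KO LPS and 151 to 270 in WT LPS.

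Over both treatments Il6 was the member in which all 7 KO libraries, at 20.1 TPM or more, lay above all 7 WT libraries, at 17.4 TPM or less. That holds for 0.555% of all tested genes, and 1.87% had groups apart in the higher direction within each treatment. Il6 lies at chr5:30013114-30019981 on the plus strand with no gene overlapping its exons. Neutrophil sums were 24830, 23509, 14114 and 11420 TPM in KO LPS and 9218, 10178, 21751 and 20034 TPM in WT LPS, and the library with the highest sum in each LPS group, KO_LPS_1 and WT_LPS_3, was also the one with the highest Il6. WT_LPS_4 had 9.69 TPM of Il6 beside 20034 TPM of neutrophil markers. Retnlg, Ly6g, Mmp8, Camp, Ngp and Ltf of that list were higher in WT_LPS_4 than in WT_LPS_3, and the other listed markers were lower. The part of neutrophil RNA in the Il6 values was not tested.

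No other member was called between genotypes under LPS. Tnf had 286, 120, 78.2 and 126 TPM in KO LPS libraries and 94.0, 65.7, 329 and 134 TPM in WT LPS libraries, with a difference of 0.08 and a 95% interval of -1.01 to 1.16 (log2 scale, limma adjusted p = 0.972). Il1a had 458, 276, 246 and 252 TPM in KO LPS libraries and 233, 249, 311 and 276 TPM in WT LPS libraries, with a difference of 0.16 and an interval of -0.20 to 0.53 (limma adjusted p = 0.759). Il1b had 820, 432, 348 and 521 TPM in KO LPS libraries and 426, 389, 1375 and 578 TPM in WT LPS libraries, with a difference of -0.26 and an interval of -1.07 to 0.56 (limma adjusted p = 0.838). In these 3 genes KO_LPS_1 and WT_LPS_3 were the highest libraries of their groups and the groups overlapped. Without KO_LPS_1 the difference of Tnf was -0.28 and that of Il1a -0.04, and without WT_LPS_3 that of Il1b was 0.14.

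Il10 came nearest to Il6 in how the groups lay, with 16.2, 19.3, 10.4 and 18.1 TPM in KO LPS libraries and 9.40, 9.27, 12.2 and 11.2 TPM in WT LPS libraries. Only KO_LPS_3 lay inside the WT LPS range. The difference was 0.54 ± 0.28 (SE, log2 scale, 95% interval -0.07 to 1.14, limma adjusted p = 0.493). Il12b, the subunit shared by IL-12 and IL-23, went the other way in its mean, with 27.1, 4.81, 2.40 and 1.27 TPM in KO LPS libraries and 16.2, 5.24, 140 and 14.7 TPM in WT LPS libraries. Its groups overlapped and its difference was -1.89 with an interval of -3.75 to -0.03 (limma adjusted p = 0.423), or -1.0 without WT_LPS_3. Il18 was the steadiest gene, at 111 to 132 TPM in KO LPS and 113 to 123 TPM in WT LPS, and the interval of its difference was -0.20 to 0.23. Il1rn had 25.7 to 64.4 TPM in KO LPS and 24.9 to 137 TPM in WT LPS, and Osm 87.3 to 192 TPM in KO LPS and 95.2 to 141 TPM in WT LPS, and their differences were -0.23 and 0.13 with limma adjusted p of 0.888 and 0.861. Of the 9 genes 6 had positive differences with a median of 0.08, beside 62.8% and 0.07 over all genes. Groups lay apart in the higher direction for Il6 alone, beside 4.22% of all genes, and for none in the lower, beside 1.96%.

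Il1a was called under PBS and not under LPS, and Il6 the reverse, but no difference between the 2 genotype effects was called. The interaction, the KO effect under LPS minus that under PBS, was called for 0 of 18724 genes (0% of all genes) with limma, of which 1780 (9.51%) had an unadjusted p under 0.05. Il1a was the member among those, with -0.90 ± 0.26 on the log2 scale (SE, 95% interval -1.45 to -0.35, adjusted p = 0.411). Il6 had 0.32 ± 0.22 (SE, interval -0.17 to 0.80, adjusted p = 0.665), and its level in KO was 22.2 ± 2.38 TPM with LPS and 24.5 ± 1.78 TPM without (SD, n = 4 and 3). Tnf had -1.47 ± 0.77 (SE, interval -3.13 to 0.19, adjusted p = 0.562).

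Single libraries set much of the spread under LPS. KO_LPS_1 held the highest value of its group for 8 of the 10 genes, all but Il18 and Il10, where 28.6% of 11971 genes with a group mean of at least 5 TPM were highest in that library. KO_LPS_3 held the lowest for 8 of 10, where 13.1% of genes were lowest there. WT_LPS_3 was highest of its group for 8 of 10 genes, all but Il18 and Osm, where 27.3% of 11556 genes were highest there, and WT_LPS_2 lowest for 5, where 12.9% were lowest there. The genes are correlated with each other across libraries, so these counts are not independent of one another.

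The ratio of the highest to the lowest library of a group gives the size of this spread. Il12b differed most, 21.4-fold in KO LPS and 26.7-fold in WT LPS, and Tnf differed 3.66-fold in KO LPS and 5.0-fold in WT LPS. Il1rn differed 2.51-fold in KO LPS and 5.51-fold in WT LPS, and Il1b 2.36-fold and 3.54-fold in the same groups. The median over genes was 1.37-fold in KO LPS and 1.34-fold in WT LPS. Il6 lay below that median at 1.26-fold in KO LPS and above it at 1.51-fold in WT LPS. Il18 was narrower than Il6 in both groups, at 1.19-fold in KO LPS and 1.09-fold in WT LPS. Lif, at 3 to 40 reads, had ratios of 6.71 in KO LPS and 5.13 in WT LPS. The genes with large rises under LPS were not equally variable, since Il10 differed 1.31-fold in WT LPS, below the median over genes. In KO LPS Il10 differed 1.86-fold, where 78.9% of genes had a smaller ratio.

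**Figure D3:**
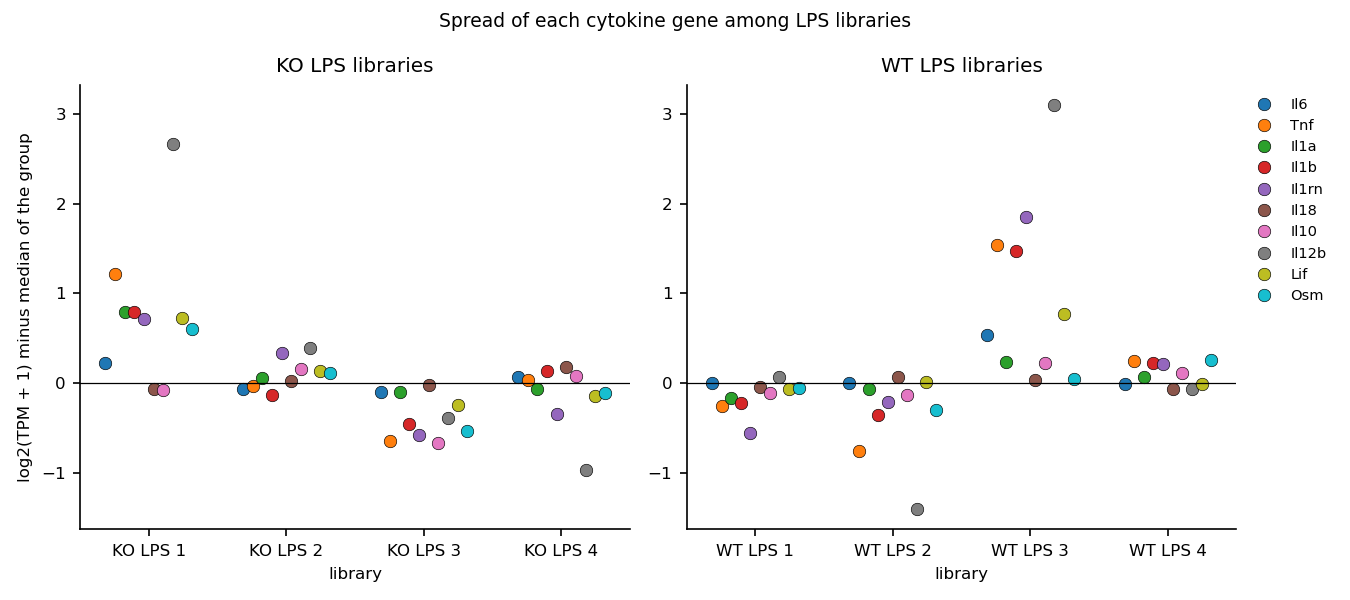
Log2(TPM + 1) of each LPS library minus the median of its group, on the vertical axis, for the 10 cytokine genes by colour, with KO LPS libraries in the left panel and WT LPS libraries in the right panel. Points of KO_LPS_1 on the left and of WT_LPS_3 on the right are the highest of their group for 8 genes each, and Il12b is the farthest point in both panels.

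Marker sums of other cells and states differed between the same libraries. KO_LPS_1 had the highest neutrophil sum of its group, 24830 TPM, with KO_LPS_2 close at 23509 TPM, and the highest immediate early sum, 12506 TPM, where the other KO LPS libraries had 6123 to 7676 TPM. WT_LPS_3 had the highest neutrophil sum of its group, 21751 TPM, with WT_LPS_4 close at 20034 TPM, and the highest monocyte sum of all 14 libraries, 2706 TPM. Within the neutrophil list, S100a8, S100a9, Mmp9 and Cxcr2 were highest of the WT LPS libraries in WT_LPS_3. Retnlg, Ly6g, Mmp8, Camp, Ngp and Ltf were highest in WT_LPS_4, and Camp, Ngp and Ltf were lowest in WT_LPS_3. The immediate early sum of WT_LPS_3 was the lowest of the WT LPS libraries, 6593 TPM against 7604 to 8264 TPM. The immediate early genes thus stood high beside the cytokines in KO_LPS_1 and low beside them in WT_LPS_3. KO_LPS_2 and WT_LPS_4, with neutrophil sums near the highest, had Il1b values of 432 and 578 TPM, the third highest of KO LPS and the next after WT_LPS_3 in WT LPS. KO_LPS_3, lowest for most genes, was the pituitary-rich library. Microglial sums were 13664 TPM in KO_LPS_1 and 18432 TPM in WT_LPS_3, the lowest of each LPS group. The part of these markers in the spread was not tested.

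**Figure D4:**
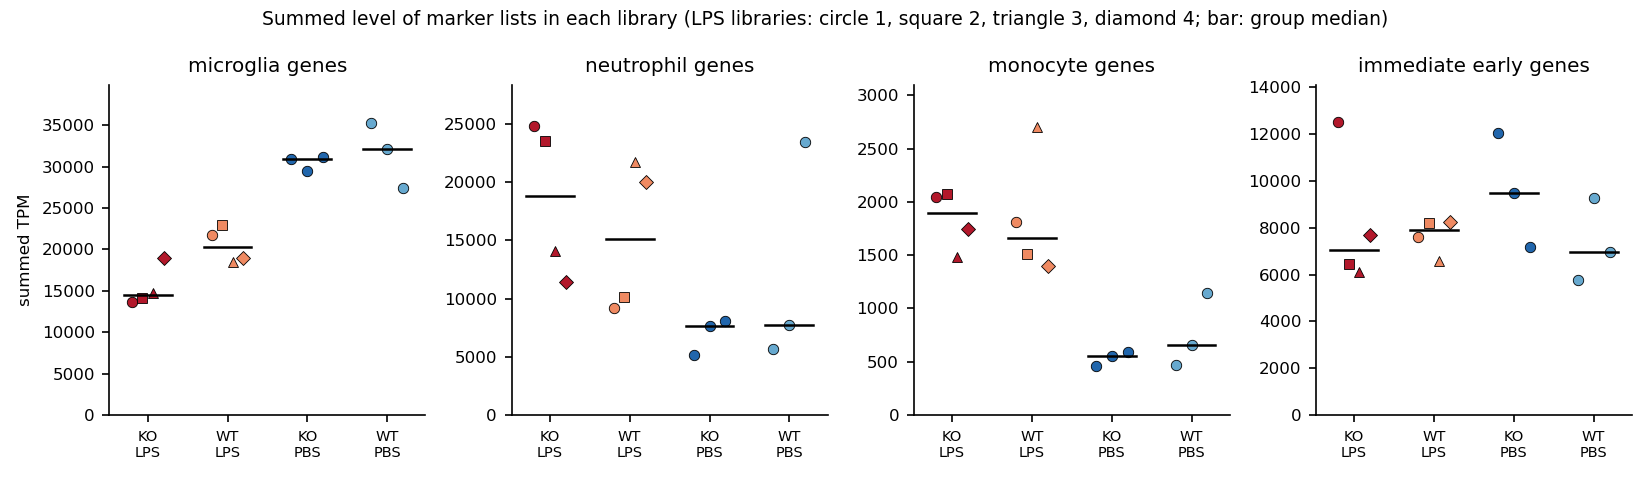
Summed TPM, on axes from 0, of microglia, neutrophil, monocyte and immediate early genes in each of the 14 libraries, groups from left to right KO LPS, WT LPS, KO PBS and WT PBS, with 1 point per library and a bar at the group median. Neutrophil sums run from 5116 to 24830 TPM with WT_PBS_914 at 23480 TPM, and KO_LPS_1 and KO_PBS_911 have the highest immediate early sums at 12506 and 12051 TPM.

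The comparison of LPS with PBS, in which sex transcripts also differ, shows what went with LPS in place of the vehicle, both given by repeated injection. The change of all genes had a median of -0.22 in KO and -0.28 in WT on the log2(TPM + 1) scale, and of 0.00 and 0.01 after median-of-ratios scaling, so changes are read against that shift. Like the sex transcripts, the gene Gm23935 split the libraries by treatment. It stood at 40440 to 153781 TPM in LPS libraries and at 566 to 2477 TPM in PBS libraries. With Gm23935 removed and TPM rescaled, the medians of all genes were -0.14 in KO and -0.187 in WT. In KO 6 of the 9 tested genes rose (Tnf, Il1a, Il1b, Il1rn, Il10 and Osm) and none fell, beside 7.82% and 26.9% of all genes, with a median of 1.59. KO LPS and KO PBS libraries did not overlap in the higher direction for 6 of the 9 tested genes, beside 9.52% of all genes, and in the lower direction for 1, Il18, beside 31.3%. The 6 genes were Il1a, Il1b, Il1rn, Il10, Osm and Il12b, of which Il12b was not called. The KO groups of Tnf, which was called, overlapped. In WT 7 rose (the same genes and Il12b) and 1, Il6, fell, beside 7.95% and 34.1% of all genes, with a median of 3.01. WT LPS and WT PBS libraries did not overlap in the higher direction for 7 of the 9 tested genes, beside 8.45% of all genes, and in the lower direction for none. Percentages of all genes called in either direction were 34.7% in KO and 42.0% in WT.

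Il1b rose by 4.33 ± 0.41 in KO and 4.73 ± 0.41 in WT (log2 scale, SE, limma adjusted p = 1.36e-05 and 8.50e-06), with 530 ± 206 TPM in KO LPS against 24.3 ± 3.21 TPM in KO PBS, and 692 ± 463 TPM in WT LPS against 23.0 ± 9.89 TPM in WT PBS. Its antagonist Il1rn rose by 3.81 ± 0.48 in KO and 3.58 ± 0.48 in WT, to 42.5 ± 17.9 TPM in KO LPS against 1.91 ± 0.294 TPM in KO PBS, and 59.4 ± 52.5 TPM in WT LPS against 3.16 ± 1.51 TPM in WT PBS. The ratio of Il1rn to Il1b was 0.0585 to 0.114 in KO LPS and 0.0585 to 0.0999 in WT LPS, and was 0.0756 to 0.0818 in KO PBS and 0.107 to 0.164 in WT PBS. The WT LPS ratios lay under those of WT PBS, while the KO LPS ratios overlapped those of KO PBS. Il10 rose by 3.30 ± 0.30 in KO and 3.01 ± 0.30 in WT, to 16.0 ± 3.94 TPM in KO LPS against 0.822 ± 0.922 TPM in KO PBS, and 10.5 ± 1.40 TPM in WT LPS against 0.449 ± 0.355 TPM in WT PBS. All LPS libraries were above all PBS libraries of the same genotype in these 3 genes. For each of them an exact two-sided permutation test of 4 against 3 libraries had p = 0.0571, which is its lowest possible value.

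The changes of Tnf and Il1a with LPS were smaller in KO than in WT, beside PBS levels that were higher in KO. Tnf changed by 1.59 ± 0.54 in KO (SE, limma adjusted p = 0.0372) and 3.07 ± 0.54 in WT (adjusted p = 0.00103). In KO the call was lost without KO_LPS_1, KO_LPS_2 or KO_LPS_4 or without KO_PBS_912 or KO_PBS_915, at adjusted p of 0.0564 to 0.156, and with no filter (0.0663) and voom (0.0673). KO_PBS_911 with 88.0 TPM lay above KO_LPS_3 with 78.2 TPM. Il1a changed by 1.32 ± 0.18 in KO and 2.22 ± 0.18 in WT, and Osm by 1.13 ± 0.23 in KO and 1.62 ± 0.23 in WT, with no overlap of the libraries in either gene. Il12b rose by 4.32 ± 0.93 in WT (adjusted p = 0.00311) and had 2.08 ± 0.93 in KO (adjusted p = 0.101), on PBS values of 0 to 8 reads. These results changed with the setting: with voom the WT value was 7.35 and not called (adjusted p = 0.112), and the KO value was called with a pseudocount of 0.1 (3.56, adjusted p = 0.0319) and without WT_LPS_3 and KO_LPS_1 (1.33, adjusted p = 0.0370). The differences between genotypes in these changes are the interaction values given above or, for Osm and Il12b, -0.48 and -2.25 with adjusted p of 0.652 and 0.595, none of which was called.

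Il6 and Il18 did not follow the other cytokines. Il6 had 22.2 ± 2.38 TPM in KO LPS against 24.5 ± 1.78 TPM in KO PBS, a difference of -0.14 ± 0.16 (limma adjusted p = 0.533), and 10.9 ± 2.45 TPM in WT LPS against 15.3 ± 2.80 TPM in WT PBS. The WT difference was called at -0.45 ± 0.16 (adjusted p = 0.0341), but it lies close to the shift of all genes and was -0.14 with adjusted p = 0.565 after median-of-ratios scaling. It was also lost under 5 other settings (no filter, without Gm23935, compared groups alone, without the pituitary-rich libraries, voom), at adjusted p of 0.0506 to 0.165, and without any of WT_LPS_1, WT_LPS_2, WT_LPS_4, WT_PBS_904 or WT_PBS_914, at 0.0747 to 0.138. Il18 had 119 ± 9.20 TPM in KO LPS against 142 ± 9.11 TPM in KO PBS, and 117 ± 5.03 TPM in WT LPS against 120 ± 21.7 TPM in WT PBS, with differences of -0.25 and -0.02 (limma adjusted p = 0.0881 and 0.919). The KO difference was called with the compared groups alone (-0.25, adjusted p = 0.0428) and without the pituitary-rich libraries (-0.24, adjusted p = 0.0409). After median-of-ratios scaling it was 0.01 in KO, and the WT difference was 0.32 and called higher (adjusted p = 0.0336).

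Genes around the cytokines were read as lists, and in neither genotype comparison was a member of any of the 6 lists called in either direction with limma. Of the receptors 15 of 16 passed the filter, and 1 had an unadjusted p under 0.05 under PBS and 1 under LPS. Tnfrsf1a, the main receptor of TNF, had 316 ± 12.5 TPM in KO PBS against 259 ± 19.3 TPM in WT PBS (difference 0.29, adjusted p = 0.0716, n = 3 each). Il10ra, the ligand-binding chain of the IL-10 receptor, had 333 ± 70.5 TPM in KO LPS against 417 ± 37.1 TPM in WT LPS (-0.35, adjusted p = 0.328, n = 4 each). Of 18 genes of cytokine processing and the inflammasome, 4 under PBS and 3 under LPS had an unadjusted p under 0.05. Nlrp3, the sensor of the inflammasome that matures IL-1 beta, had 168 ± 2.63 TPM in KO PBS against 110 ± 16.8 TPM in WT PBS (0.62, adjusted p = 0.170). Its adaptor gene Pycard had 40.7 ± 4.60 TPM in KO LPS against 55.1 ± 6.95 TPM in WT LPS (-0.42, adjusted p = 0.116). The share of all genes with an unadjusted p under 0.05 was 15.7% under PBS and 11.7% under LPS.

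Regulators of cytokine transcription and mRNA decay had mostly higher values in KO under PBS, none of them called. Of 24 transcription factors of cytokine genes 20 had positive differences, where 49.1% of all genes did, with a median of 0.22 beside -0.00 over all genes, and 6 had an unadjusted p under 0.05. Cebpb, a factor that binds promoters of Il6 and of acute-phase genes, had 37.4 ± 5.53 TPM in KO PBS against 20.8 ± 5.09 TPM in WT PBS (0.84, limma adjusted p = 0.175). Of 16 genes of cytokine mRNA decay and stability 15 had positive differences, with a median of 0.21, and 4 had an unadjusted p under 0.05. Zfp36l1, which targets AU-rich mRNAs for decay, had 929 ± 196 TPM in KO PBS against 641 ± 90.8 TPM in WT PBS (0.52, adjusted p = 0.144). Under LPS the medians of these lists were 0.00 and 0.06, beside 0.07 over all genes, and 1 gene of each had an unadjusted p under 0.05. These were values lower in KO LPS, Cebpd at 65.6 ± 2.38 against 90.7 ± 16.7 TPM in WT LPS (-0.45, adjusted p = 0.0939) and Arid5a, an RNA-binding protein that stabilises Il6 mRNA, at 29.1 ± 3.10 against 37.7 ± 5.11 TPM in WT LPS (-0.36, adjusted p = 0.163).

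Of 23 genes of cytokine signalling and feedback 4 under PBS and 5 under LPS had an unadjusted p under 0.05, with medians of 0.05 and -0.05. Socs3, the feedback inhibitor of gp130 receptors that IL-6 induces, had 344 ± 91.6 TPM in KO PBS against 238 ± 85.4 TPM in WT PBS (0.56, limma adjusted p = 0.271). Under LPS Socs3 had 1321, 1128, 1038 and 1324 TPM in KO LPS libraries and 1684, 1476, 1578 and 1741 TPM in WT LPS libraries, groups that lay apart in the direction opposite to Il6 (-0.43, adjusted p = 0.427), a value chosen after it was seen. Jak1, a kinase of these receptors, had 156 ± 9.45 TPM in KO LPS against 185 ± 9.50 TPM in WT LPS (-0.24, adjusted p = 0.178). Among 30 other cytokine genes 19 passed the filter, 3 had an unadjusted p under 0.05 under PBS and 1 under LPS, and the medians were -0.07 and 0.04. Csf1, a growth factor of microglia, had 30.8 ± 0.761 TPM in KO PBS against 18.4 ± 2.38 TPM in WT PBS (0.72, adjusted p = 0.124). Il16 had 17.8 ± 4.11 TPM in KO LPS against 22.2 ± 1.85 TPM in WT LPS (-0.32, adjusted p = 0.393).

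**Figure D5:**
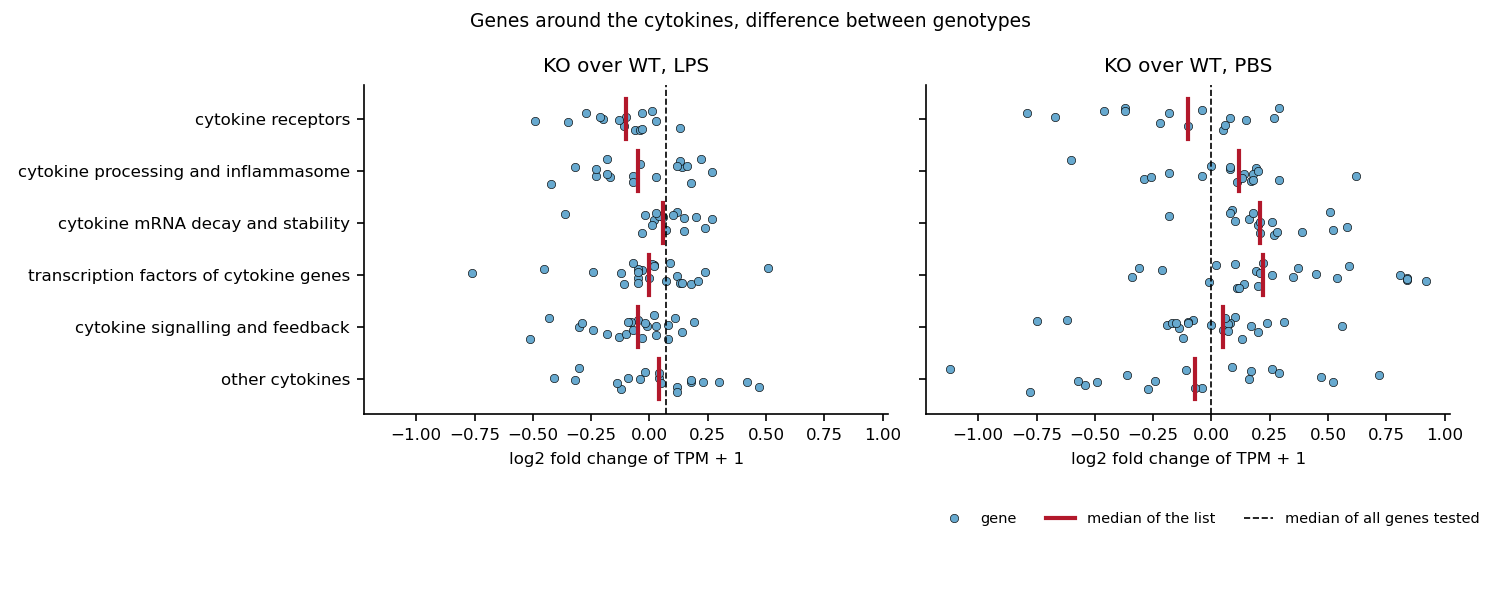
Difference between KO and WT in log2(TPM + 1) of each tested gene in the 6 lists around the cytokines, under LPS in the left panel and under PBS in the right panel, with 1 point per gene, a red bar at the list median and a dashed line at the median of all genes. No point is a called gene, and under PBS the medians of transcription factors and of mRNA decay genes are 0.22 and 0.21.

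Across all 14 libraries, deviations from the group means of log2(TPM + 1) show which genes varied together within groups. These correlations are descriptions over libraries that share cell make-up and depth, and have no test. Il1b and Il1rn were the closest pair of members, with a Pearson r of 0.91, followed by Il6 with Il1b at 0.84, Il1rn with Il12b at 0.82 and Tnf with Il12b at 0.79. Il18 ran with none of them, at -0.45 to 0.16. Among 11090 genes, those nearest to Tnf were Rab20 at 0.954, Nfkbiz, an NF-kB cofactor, at 0.938, Sap30 at 0.924 and Atg2a at 0.910. Nearest to Il1b were Arid3a at 0.942, Acod1, the itaconate-producing enzyme of activated macrophages, at 0.931, Il1f9 at 0.921 and Tnfaip2 at 0.916. Acod1 reached 750 TPM in WT_LPS_3, where the other WT LPS libraries had 87.4 to 155 TPM. Nearest to Il1a were Prim1 at 0.928, Iqsec1 at 0.855, Atp6v0c at 0.841 and Icam1, an adhesion molecule of activated cells, at 0.833. Nearest to Il6 were Phf11a at 0.921, Mogs at 0.909, Vnn3 at 0.907 and Hpse at 0.884.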

How the data were processed

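Total RNA of purified microglia was sequenced in 14 libraries. The submitters' processing notes list STAR 2.7.10b, featureCounts 2.0.1, cutadapt 4.4 and FastQC 0.11.9. They give hg38, a human build, but the table's IDs are mouse Ensembl genes. Deposited units are TPM, which the authors made per gene and library to a total of 1000000. Names came from the reference table for 41588 of 41739 IDs. No column was left unused. Strand is not stated, and the labels name no separate animals for the libraries, so each p-value reflects spread among libraries that may be technical.

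Libraries were grouped by genotype and treatment. Log2(TPM + 1) was fitted in R 4.3.3 by limma 3.58.1 (lmFit, eBayes with trend) on 4 group means, and p-values were adjusted by Benjamini-Hochberg across the 18724 genes that reached 1 TPM in 3 or more libraries. Genes were called at adjusted p under 0.05, and every adjusted p is from this fit unless another is named. Fold changes on this scale understate changes of low genes. On simulated data the fit was tested for known changes. Single values were also tested with exact two-sided permutation tests (scipy 1.17.1). Reads were recovered with GENCODE M21 exon lengths, whole within 0.02 reads for 98.4% to 98.6% of values. Intervals and read numbers cover what the files show, and totals are estimates.

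Other settings were pseudocounts of 0.1 and 5, other filters, median-of-ratios scaling, removal of Gm23935, robust moderation, compared groups alone, voom on recovered reads, a replicate block and libraries left out. The setting without WT_LPS_3 and KO_LPS_1 was chosen after seeing the data. The cytokine genes, lists and settings were chosen with earlier results of these data known. Of each list, the gene with the smallest p per comparison is named where none is called, and for Il6, Tnf, Il1a and Il1b the 4 genes with the highest r of deviations and a mean of at least 5 TPM. Genes with model names were left out of that ranking. Protein sequences were not used here.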

Additional observations from a re-analysis of the deposited data

Results flagged for a closer look

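In 6 of 20 sets of 4 LPS libraries, 1 library stood apart from the other 3, with a gap to its nearest neighbour, as a share of the whole range, beyond Dixon's 95% critical value for 4 samples. The gaps were taken on TPM and not on the log2(TPM + 1) scale of the fit, and gaps on the log2 scale were not tested. Chance alone gives this in about 1 in 20 sets only where values are normally distributed. That was not tested for TPM, so the rate cannot be set against the 6. The genes also vary together, so the 6 are not independent. In KO LPS the library was KO_LPS_1 for Il1a, with 458 TPM against 246 to 276 in the others (gap 0.859 of the range), and for Il12b, with 27.1 TPM against 1.27 to 4.81 (0.863). In WT LPS it was WT_LPS_3 for Il6, with 14.6 TPM against 9.69 to 9.75 (0.987), for Il1rn, with 137 TPM against 24.9 to 43.3 (0.837), for Il12b, with 140 TPM against 5.24 to 16.2 (0.918), and for Lif, with 1.21 TPM against 0.236 to 0.310 (0.924). Without WT_LPS_3 the difference of Il6 between KO LPS and WT LPS was 1.11 on the log2(TPM + 1) scale, against 0.97 with all libraries.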

How the results depend on the processing

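The call of Il1a between KO and WT under PBS was 1 of 9 genes and became 0 without a filter, without both pituitary-rich libraries, with voom, and with each of the 6 PBS libraries left out (0 to 0). The call of Il6 under LPS, 1 of 9, became 0 when the LPS groups were fitted alone and without the pituitary-rich libraries, and was kept with any 1 LPS library left out. The cause was not tested. Under a replicate block, with replicate numbers of the LPS libraries as blocks, both calls became 0 (adjusted p = 0.0647 for Il1a and 0.0571 for Il6). Same-numbered LPS libraries showed correlations of deviations of 0.06, -0.06, -0.09 and -0.03. Correlations over so few libraries cannot show whether equal numbers mark a shared batch, and the labels do not say what the numbers stand for. Over all settings 5 to 7 genes were called between LPS and PBS in KO, 6 to 8 in WT and 0 in the interaction. Counts of all genes called between KO and WT, 191 under PBS and 93 under LPS, ran from 8 to 49 and from 18 to 100 with 1 library left out and from 18 to 297 and 0 to 315 under other settings.

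The values whose sign turned were not called in the fit reported, and 1 of them, Il18 between LPS and PBS in WT, was called under median-of-ratios scaling. With 1 library left out, differences between KO and WT under PBS ran from -0.12 to 0.45 for Il1b and -0.14 to 0.50 for Il10, and under LPS from -0.28 to 0.52 for Tnf, -0.04 to 0.25 for Il1a, -0.49 to 0.14 for Il1b, -0.52 to 0.28 for Il1rn, -0.04 to 0.05 for Il18 and -0.06 to 0.31 for Osm. Without WT_LPS_3 and KO_LPS_1 they were 0.05 for Il1rn and -0.04 for Osm. Under median-of-ratios scaling they were -0.02 for Tnf and -0.08 for Il18, and -0.00 for Il18 without Gm23935. Between LPS and PBS, median-of-ratios scaling gave 0.12 for Il6 and 0.01 for Il18 in KO and 0.32 for Il18 in WT (adjusted p = 0.0336). Voom gave 0.04 for Il6 in KO and 0.15 for Il18 in WT, removal of Gm23935 gave 0.09 for Il18 in WT, and libraries left out gave -0.17 to 0.07. The interaction of Il1rn ran from -0.06 to 0.74 with 1 library left out. Depth limits Il10 and Il12b under PBS and Lif in all groups, which rest on few reads.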

Other observations

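Members of the lists around the cytokines were called in both directions between LPS and PBS, a comparison along which sex transcripts also differ. Over all tested genes 7.82% rose and 26.9% fell in KO, and 7.95% rose and 34.1% fell in WT. Of 24 transcription factors of cytokine genes 11 rose and 3 fell in KO and 14 rose and 3 fell in WT. The examples here were chosen after their values were seen. Bcl3, an atypical IkB protein that works with NF-kB p50, rose by 4.10 in KO and 3.93 in WT on the log2(TPM + 1) scale. Cebpb had 285 TPM in KO LPS against 37.4 TPM in KO PBS and 307 TPM in WT LPS against 20.8 TPM in WT PBS. Of 23 signalling and feedback genes 9 rose and 3 fell in each genotype. Irak3, which restrains Toll-like receptor signalling and is known from endotoxin tolerance, rose by 3.38 in KO and 2.84 in WT.

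Among 15 tested receptors 6 rose and 3 fell in KO, and 5 rose and 2 fell in WT. Il1r2, the decoy receptor of IL-1 that neutrophils also express, had 125 TPM in KO LPS against 10.6 TPM in KO PBS and 176 TPM in WT LPS against 14.8 TPM in WT PBS, while Il6ra, the IL-6 receptor, fell by 0.89 in KO and by 0.77 in WT. Of 18 genes of processing and the inflammasome 6 rose and 4 fell in KO, and 7 rose and 3 fell in WT, with Mefv, the pyrin gene, at 51.9 TPM in KO LPS against 1.79 TPM in KO PBS. Of 16 genes of mRNA decay 3 rose and 6 fell in KO, and 3 rose and 5 fell in WT. Zc3h12a, which encodes the RNase Regnase-1 that cuts Il6 mRNA, rose by 1.19 in KO and 1.47 in WT. Of 19 other tested cytokines 8 rose and 3 fell in KO, and 9 rose and 5 fell in WT.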
